A study of Mus musculus with 6 samples.

Results

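Transcripts of 9 transcription factors that make up or guard the core pluripotency network were followed in mouse embryonic stem cells kept alive by mouse or coelacanth POUV proteins. The genes were Sox2, Nanog, Sall4, Prdm14, Foxd3, Zfp42, Tfcp2l1, Tbx3 and Tcf7l1. They were chosen with earlier results of these data known, so their counts beside those of all probes are no independent test. Every array probe whose transcript accession maps to them was used, whatever its values. The 9 genes had 13 probes among the 55681 non-control probes of the array, which carry 20972 named genes. All 13 were well above background on all 6 arrays and entered the test, which ran over 30944 probes and 14595 named genes.

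The cells were ZHBTc4, mouse embryonic stem cells whose resident Oct4 transgene is silenced by tetracycline, so that survival as stem cells depends on a POUV protein supplied from a plasmid. The pCAG-IP-POUV plasmid carried coelacanth POU5F3 into LcPOU5F3 clones 1 and 2, the paralog POU5F1 into LcPOU5F1 clones 4 and 5, and mouse OCT4 into mOct4 clones 1 and 2. All 3 groups had tetracycline at 2 µg/mL and, from day 2, puromycin at 1 µg/mL, in serum medium with LIF on gelatin, and colonies were picked at day 9 and expanded. Each line is thus 1 picked colony that had survived selection on the introduced protein, and each of the 6 arrays reads 1 clone. The mouse Pou5f1 probe read -3.20 and -5.95 in the LcPOU5F3 clones, -4.78 and -4.04 in the LcPOU5F1 clones, and -1.75 and -1.48 in the mOct4 clones, as log2 signal relative to the array's 75th percentile. The mOct4 arrays alone had it well above background. The part of the transcript it reads is not given here.

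In mouse embryonic stem cells OCT4 and SOX2 bind DNA side by side at composite OCT-SOX elements, and together with NANOG they occupy and activate one another's genes as well as a wide set of others. Around this centre, KLF-type, TFCP2L1 and TBX3 proteins link it to LIF signalling and, with PRDM14, hold the naive state. TCF7L1, the DNA-binding repressor at the end of the Wnt pathway, restrains the same genes until β-catenin relieves it. Loss of OCT4 turns embryonic stem cells toward trophectoderm, the outer layer of the blastocyst.

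Upstream sequences are shown for Nanog, Sox2 and Zfp42, the members whose windows hold the OCT4-type spelling described next. All 3 fell with LcPOU5F3, as did Foxd3 and Tfcp2l1, whose windows do not hold it. Nanog and Tfcp2l1 were called on 1 of their probes each. The RefSeq promoter table of GRCm38.p6 held 7 windows for 6 of the 9 members, and Tbx3, Prdm14 and Sall4 are only named. Each line gives the 250 bases before the annotated start, read 5′ to 3′ on the gene's strand, in lower case. Capitals mark a match, on either strand, to the octamer's first 7 bases ATGCAAA or, for Nanog, to the composite OCT-SOX spelling, the SOX hexamer CATTGT followed by any base and then ATGCAAA, which contains them. The windows are chr6:122707239-122707488 on the plus strand for Nanog, chr3:34649745-34649994 on the plus strand for Sox2 and chr8:43307010-43307259 on the minus strand for Zfp42.
Nanog: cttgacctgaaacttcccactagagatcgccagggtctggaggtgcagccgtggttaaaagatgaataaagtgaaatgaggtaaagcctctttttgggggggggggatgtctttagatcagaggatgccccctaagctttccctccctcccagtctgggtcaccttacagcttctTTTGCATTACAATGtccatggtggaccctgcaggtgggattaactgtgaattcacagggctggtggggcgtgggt
Sox2: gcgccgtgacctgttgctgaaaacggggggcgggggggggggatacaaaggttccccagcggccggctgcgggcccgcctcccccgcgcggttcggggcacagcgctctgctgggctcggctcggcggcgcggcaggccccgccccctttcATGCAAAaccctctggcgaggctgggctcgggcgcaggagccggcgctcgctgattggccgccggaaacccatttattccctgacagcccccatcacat
Zfp42: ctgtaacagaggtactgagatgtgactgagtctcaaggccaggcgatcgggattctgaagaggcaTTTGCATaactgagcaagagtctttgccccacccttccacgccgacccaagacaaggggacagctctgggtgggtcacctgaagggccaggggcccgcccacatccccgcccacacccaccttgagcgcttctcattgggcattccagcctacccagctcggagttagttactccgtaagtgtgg
The composite spelling lay 75 to 62 bases before the Nanog start, on the opposite strand. Among 32851 upstream windows of the same length it occurred in 2 (0.00609%), and both are overlapping windows of Nanog. Sox2 had the 7-base spelling 99 to 93 bases before its start. Zfp42 had the full octamer ATGCAAAT on the opposite strand, 186 to 179 bases before its start. The 7-base spelling occurs in 1355 windows (4.12%), the octamer in 526 (1.60%) and the SOX hexamer CATTGT in 3512 (10.7%), both strands counted. The windows of Tfcp2l1, Tcf7l1 and Foxd3 held no match to the 7-base spelling, which says only that these letters are not in those windows.

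Levels below are log2 signals relative to each array's 75th percentile, so that 0 is the 75th percentile and a step of 1 is a doubling of the signal, and group means are over n = 2 clones. Differences are log2 fold changes with their standard errors from limma, fitted over all 6 arrays and all 30944 probes with Benjamini-Hochberg adjustment, and a probe was called at an adjusted p under 0.05. A probe's level is set only against its own level in other groups, except in the marker sums and where a brightest probe is named. In those sums bright probes weigh most. These are bulk samples, in which fewer cells expressing a gene and less RNA per cell cannot be told apart.

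With LcPOU5F3 in place of mouse OCT4, Sox2, Nanog, Prdm14, Foxd3, Zfp42 and Tfcp2l1 fell, by 2.95-fold to 12.5-fold, Nanog and Tfcp2l1 on 1 of their probes each, while Sall4, Tbx3 and Tcf7l1 did not pass the test as fitted. No member passed with LcPOU5F1 in place of mouse OCT4. Between the paralogs, whose fold changes use no mOct4 array, Sox2, Nanog, Prdm14, Foxd3 and Zfp42 were higher with LcPOU5F1. They were higher by 3.37-fold to 12.8-fold, again with Nanog on 1 probe. Each of these calls was lost when either mOct4 clone was left out of the fit.

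**Figure D1:**
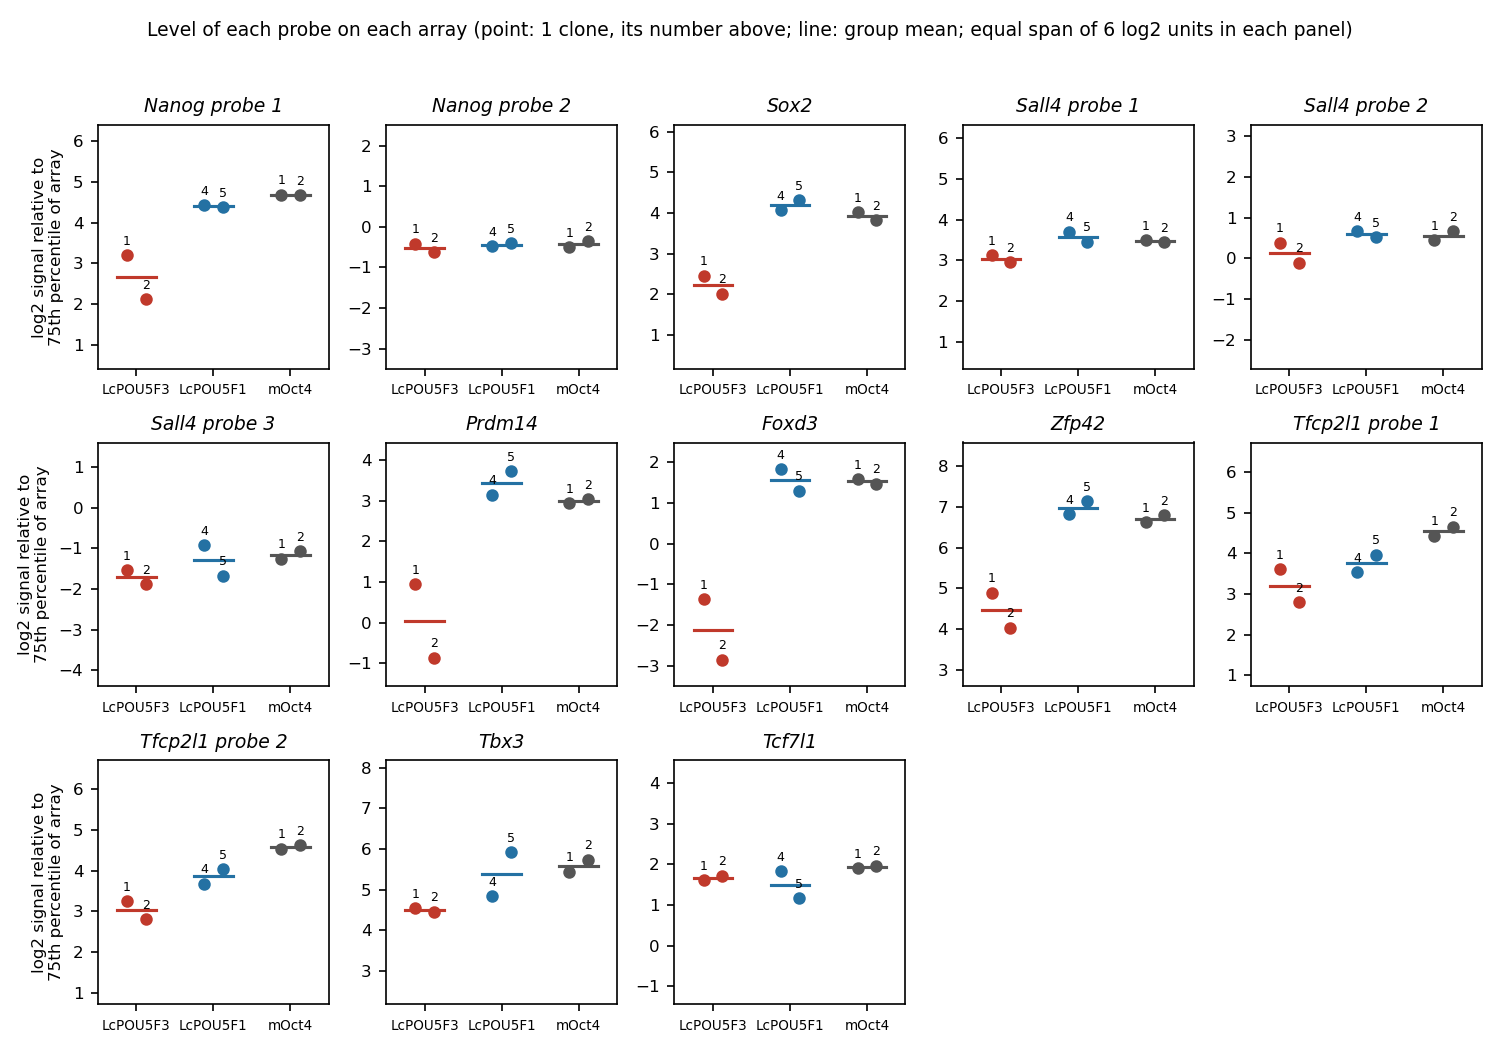
Log2 signal of each of the 13 probes on each array, relative to the array's 75th percentile; each point is 1 clone with its number, lines are group means of n = 2, and every panel spans 6 log2 units. The LcPOU5F3 clones sit far below both other groups for Nanog probe 1, Sox2, Prdm14, Foxd3 and Zfp42, for example at -1.37 and -2.85 for Foxd3 against 1.83 and 1.30 with LcPOU5F1 and 1.59 and 1.48 with mOct4.

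Sox2 encodes the HMG-box factor that pairs with OCT4 on composite elements. Its log2 level was 2.46 and 2.01 in the LcPOU5F3 clones, 4.07 and 4.32 in the LcPOU5F1 clones, and 4.02 and 3.82 in the mOct4 clones. Both LcPOU5F3 clones lay below all 4 others, and the LcPOU5F1 clones lay above the mOct4 clones by a smaller step. Sox2 was 3.21-fold lower with LcPOU5F3 than with mOct4 (log2 fold change -1.68 ± 0.23, limma adjusted p = 0.0184). It was 3.88-fold higher with LcPOU5F1 than with LcPOU5F3 (1.96 ± 0.23, limma adjusted p = 0.0158). Between LcPOU5F1 and mOct4 the difference was 0.27 ± 0.23 with a 95% interval from -0.30 to 0.85 (limma adjusted p = 0.613), and it changed sign to -0.10 when arrays were centred on their median.

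Nanog, the homeodomain factor that sustains self-renewal, was read by a pair of probes that gave different answers. Probe 1, the brighter, was at 3.19 and 2.11 in the LcPOU5F3 clones, 4.42 and 4.38 in the LcPOU5F1 clones, and 4.69 and 4.68 in the mOct4 clones. The groups did not overlap, the LcPOU5F3 clones were lowest, and clone 2 of that group was lower than clone 1. On this probe Nanog was 4.12-fold lower with LcPOU5F3 than with mOct4 (-2.04 ± 0.37, limma adjusted p = 0.0305) and 3.37-fold higher with LcPOU5F1 than with LcPOU5F3 (1.75 ± 0.37, limma adjusted p = 0.0453). LcPOU5F1 and mOct4 differed by -0.29 ± 0.37 (95% interval -1.22 to 0.64).

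Nanog probe 2 was at -0.41 and -0.63 in the LcPOU5F3 clones, -0.47 and -0.40 in the LcPOU5F1 clones, and -0.50 and -0.36 in the mOct4 clones. All groups overlapped. The LcPOU5F3 to mOct4 difference was -0.09 ± 0.17 (95% interval -0.53 to 0.35, limma adjusted p = 0.773), an interval that does not reach the fall on probe 1. On probe 2 the 95% interval was -0.44 to 0.44 for LcPOU5F1 minus mOct4 and -0.35 to 0.53 for LcPOU5F1 minus LcPOU5F3. Both probes carry the same transcript accession, and their positions along it are not given here.

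Sall4 encodes a spalt-type zinc finger protein that binds with OCT4 and NANOG at many of their sites and is needed for stem cell self-renewal. Sall4 probe 1, the brightest of 3, was at 3.12 and 2.95 in the LcPOU5F3 clones, 3.71 and 3.46 in the LcPOU5F1 clones, and 3.49 and 3.45 in the mOct4 clones. Both LcPOU5F3 clones were the lowest, by a small step, and the other groups overlapped. The LcPOU5F3 to mOct4 differences were -0.43 ± 0.18, -0.42 ± 0.23 and -0.55 ± 0.30 on probes 1, 2 and 3. None of the 3 passed (limma adjusted p = 0.166, 0.274 and 0.276). The same probes differed by 0.55 ± 0.18, 0.45 ± 0.23 and 0.41 ± 0.30 between LcPOU5F1 and LcPOU5F3, and none passed (limma adjusted p = 0.107, 0.23 and 0.378). LcPOU5F1 minus mOct4 was 0.12 ± 0.18 on probe 1 (95% interval -0.33 to 0.57, or -0.25 with median centring), and probes 2 and 3 had intervals from -0.54 to 0.62 and from -0.91 to 0.63. Probe 2 spanned -0.11 to 0.67 and probe 3 -1.88 to -0.92 over the 6 arrays. On probe 3 LcPOU5F1 clone 5, at -1.68, lay between LcPOU5F3 clones 1 and 2 at -1.54 and -1.88.

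Prdm14, a PR-domain zinc finger factor that represses FGF signalling and DNA methyltransferase genes in stem cells and acts in primordial germ cells, was at 0.95 and -0.86 in the LcPOU5F3 clones. It was at 3.15 and 3.72 in the LcPOU5F1 clones and at 2.93 and 3.04 in the mOct4 clones. Both LcPOU5F3 clones lay well below the rest and far apart from each other, and the LcPOU5F1 clones lay above the mOct4 clones. Prdm14 was 7.68-fold lower with LcPOU5F3 than with mOct4 (-2.94 ± 0.60, limma adjusted p = 0.0399) and 10.5-fold higher with LcPOU5F1 than with LcPOU5F3 (3.40 ± 0.60, limma adjusted p = 0.0334). The interval for LcPOU5F1 minus mOct4 was wide, from -1.07 to 1.98 around 0.46.

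Foxd3, a forkhead factor required to maintain the pluripotent epiblast and later the neural crest, had the widest separation among the 9 genes as fitted. It was at -1.37 and -2.85 in the LcPOU5F3 clones, 1.83 and 1.30 in the LcPOU5F1 clones, and 1.59 and 1.48 in the mOct4 clones. The LcPOU5F3 clones lay below the others with no overlap, and the mOct4 values lay between those of the LcPOU5F1 clones. Foxd3 was 12.5-fold lower with LcPOU5F3 than with mOct4 (-3.65 ± 0.51, limma adjusted p = 0.0196) and 12.8-fold higher with LcPOU5F1 than with LcPOU5F3 (3.68 ± 0.51, limma adjusted p = 0.0213). These sizes depend on how dim signals are treated. With normexp background correction Foxd3 differed by -2.82 between LcPOU5F3 and mOct4. Between the paralogs it then differed by 2.82, less than Prdm14 at 3.08. With a common floor on dim signals the Foxd3 differences were -3.44 and 3.47. For LcPOU5F1 minus mOct4 the value was 0.03 ± 0.51 (95% interval -1.26 to 1.32), with its sign turned by quantile normalization (-0.02) and by median centring (-0.34).

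Zfp42, known as Rex1, is a zinc finger gene used as a marker of undifferentiated mouse stem cells. Its log2 level was 4.89 and 4.03 in the LcPOU5F3 clones, 6.82 and 7.14 in the LcPOU5F1 clones, and 6.62 and 6.80 in the mOct4 clones. The LcPOU5F3 clones were again lowest, and LcPOU5F1 clone 4 and mOct4 clone 2 were nearly level. Zfp42 was 4.74-fold lower with LcPOU5F3 than with mOct4 (-2.25 ± 0.33, limma adjusted p = 0.0209) and 5.74-fold higher with LcPOU5F1 than with LcPOU5F3 (2.52 ± 0.33, limma adjusted p = 0.0191). LcPOU5F1 differed from mOct4 by 0.28 ± 0.33 (95% interval -0.55 to 1.1), or by -0.09 with median centring.

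Tfcp2l1, a CP2-family factor that acts downstream of LIF and STAT3, had its highest levels with mOct4. Probe 1 was at 3.61 and 2.80 in the LcPOU5F3 clones, 3.54 and 3.97 in the LcPOU5F1 clones, and 4.44 and 4.66 in the mOct4 clones. Probe 2 was at 3.24 and 2.81 in the LcPOU5F3 clones, 3.68 and 4.03 in the LcPOU5F1 clones, and 4.54 and 4.63 in the mOct4 clones. On both probes the mOct4 clones were highest and did not overlap either coelacanth group, and on probe 1 the coelacanth groups overlapped. Against mOct4, LcPOU5F3 was 2.55-fold lower on probe 1 (-1.35 ± 0.33, limma adjusted p = 0.0569) and 2.95-fold lower on probe 2 (-1.56 ± 0.23, limma adjusted p = 0.0216), so only probe 2 was called. Probe 1 was also called under 5 other settings that kept all 6 arrays (limma adjusted p from 0.0105 to 0.04). LcPOU5F1 differed from mOct4 by -0.79 ± 0.33 on probe 1 (95% interval -1.62 to 0.04) and by -0.73 ± 0.23 on probe 2 (95% interval -1.32 to -0.15), and neither passed (limma adjusted p = 0.409 and 0.338). The paralogs differed by 0.56 ± 0.33 and 0.83 ± 0.23 on the same probes, and neither passed (limma adjusted p = 0.287 and 0.0805).

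Tbx3, a T-box factor that promotes self-renewal and lies downstream of LIF signalling, was at 4.55 and 4.46 in the LcPOU5F3 clones. Its level was 4.84 and 5.92 in the LcPOU5F1 clones and 5.44 and 5.74 in the mOct4 clones. The LcPOU5F3 clones were close together and lowest, while LcPOU5F1 clones 4 and 5 lay on either side of the mOct4 pair. The LcPOU5F3 to mOct4 difference was 2.12-fold (-1.09 ± 0.38) and did not pass (limma adjusted p = 0.119), though it did with normexp background correction (adjusted p = 0.0423) and with an intensity trend (adjusted p = 0.0371). LcPOU5F1 minus mOct4 was -0.22 ± 0.38 (95% interval -1.18 to 0.74), and it was 0.32 without LcPOU5F1 clone 4. The paralogs differed by 0.87 ± 0.38 (95% interval -0.09 to 1.83, limma adjusted p = 0.18).

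Tcf7l1, the repressor of the set, was at 1.61 and 1.72 in the LcPOU5F3 clones, 1.84 and 1.17 in the LcPOU5F1 clones, and 1.91 and 1.97 in the mOct4 clones. The mOct4 clones were highest by a narrow margin, and the coelacanth groups overlapped. Tcf7l1 differed by -0.28 ± 0.26 between LcPOU5F3 and mOct4 (95% interval -0.93 to 0.38) and by -0.44 ± 0.26 between LcPOU5F1 and mOct4 (95% interval -1.09 to 0.22). Between LcPOU5F1 and LcPOU5F3 it differed by -0.16 ± 0.26 (95% interval -0.82 to 0.50). None of the 3 passed (limma adjusted p = 0.52, 0.509 and 0.667).

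Over the 13 member probes, limma with Benjamini-Hochberg adjustment called 6 lower and 0 higher in the LcPOU5F3 clones against the mOct4 clones, where 12.6% of all tested probes were called and 6.9% were called lower. The members' median log2 fold change was -1.35, against -0.17 over all tested probes. On 12 of 13 member probes every LcPOU5F3 clone lay below every mOct4 clone, as did 39.5% of all probes, and the exception was Nanog probe 2. The 6 calls were not kept under every choice of arrays and probes, and the cause was not tested. No member probe was called without mOct4 clone 1 or without mOct4 clone 2, and 1, Sox2, was called without either LcPOU5F1 clone. With no filter on dim probes none was called, and with a common floor on dim signals Nanog probe 1 and Prdm14 were lost (limma adjusted p = 0.0546 and 0.0767). Slide 2 held mOct4 clone 2 alone, so the values without it are also those within slide 1, where 0 probes were called and the members' median was -1.24. Within slide 1 the differences were -1.78 for Sox2, -2.05 for Nanog probe 1, -2.89 for Prdm14, -3.70 for Foxd3, -2.15 for Zfp42 and -1.52 for Tfcp2l1 probe 2.

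**Figure D2:**
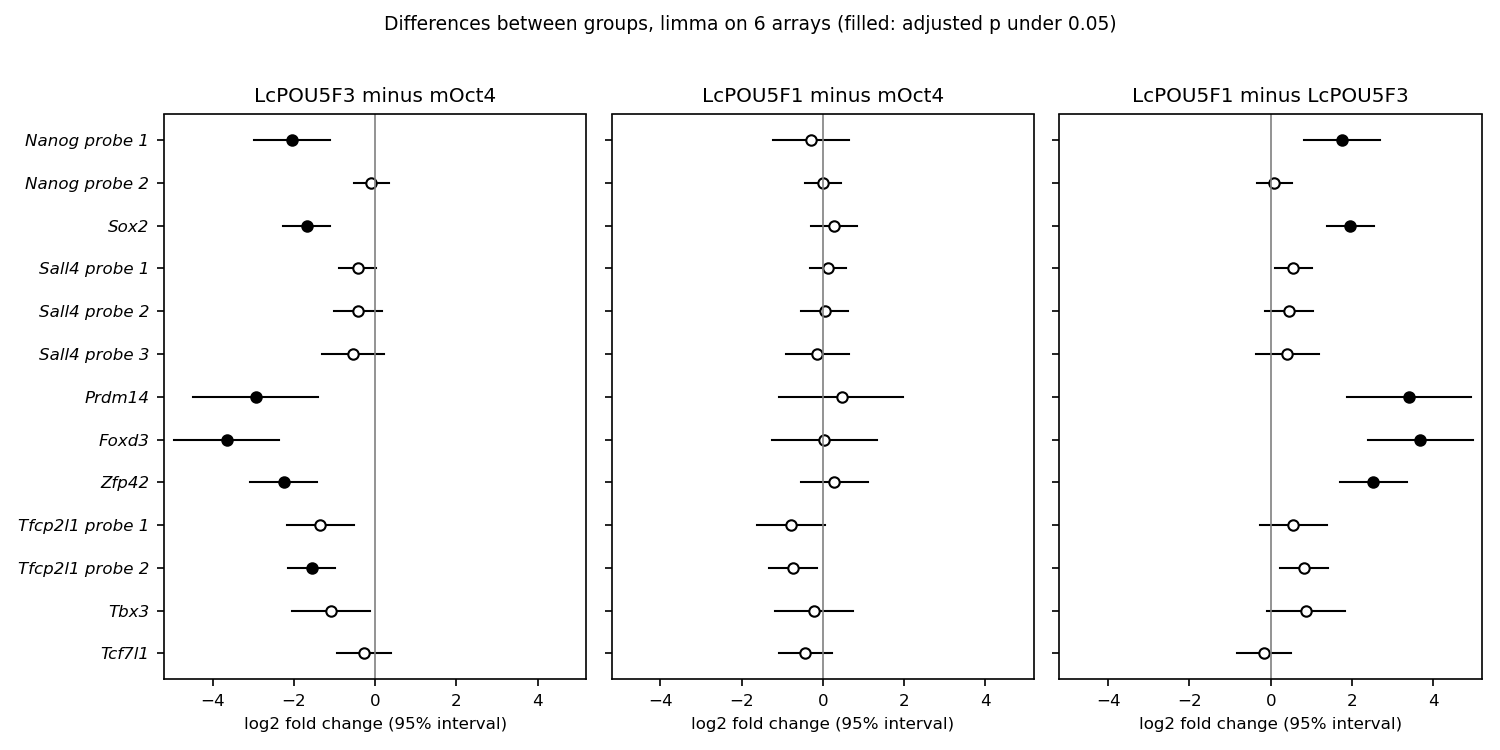
Log2 fold changes of the 13 probes in each comparison with 95% intervals from limma; filled points have an adjusted p under 0.05. The left panel has 6 filled points, all below 0, the middle panel none, and the right panel 5, all above 0. In the middle panel Sox2, Zfp42, Foxd3 and Sall4 probes 1 and 2 change sign when arrays are centred on their median, as Nanog probe 2 does in the right panel.

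For LcPOU5F1 against mOct4, limma called 0 of 13 member probes and 0 of 30944 probes in all (0%), while 3897 probes, among them 1 member probe (Tfcp2l1 probe 2), had an unadjusted p under 0.05. The members' median was -0.00083 and that of all tested probes 0.12. The groups did not overlap on 7 member probes, with LcPOU5F1 higher on 3 (39.8% of all probes) and lower on 4 (19.4%). Higher were Sox2, Zfp42 and Prdm14, and lower were Nanog probe 1, both Tfcp2l1 probes and Tcf7l1. The intervals above still hold differences of 1 or more on the log2 scale for Nanog probe 1, Tfcp2l1, Tbx3, Prdm14, Tcf7l1, Foxd3 and Zfp42. Other settings called up to 777 probes (median centring), and none of them called a member. Centring on the median moved the median of all tested probes to -0.25 in this comparison, and of the members to -0.37.

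Between LcPOU5F1 and LcPOU5F3, limma called 5 member probes higher and 0 lower, where 10.7% of all tested probes were called and 5.74% were called higher. The members' median was 0.83, against 0.33 for all probes. LcPOU5F1 clones lay above LcPOU5F3 clones with no overlap on 9 of 13 member probes, as on 44.4% of all. Among all probes 1777 were higher and 1529 lower, against 801 and 2033 with median centring and 1569 and 2044 with quantile normalization, while 5 member probes were called higher with each. Median centring moved the median of all tested probes to -0.08 here and quantile normalization to 0.10, and the members' median to 0.42 and 0.66. Leaving out any of the LcPOU5F1 or mOct4 clones left 0 member calls, and within slide 1, which has all 4 arrays of this comparison, 67 probes and 0 members were called. No mOct4 array enters the fold changes of this comparison. Leaving out an mOct4 clone therefore changes only the spread pooled over the groups and its degrees of freedom. This comparison uses the same LcPOU5F3 arrays as that with mOct4, so their values are not independent.

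The LcPOU5F3 clones differed from each other more than the clones of the other groups did. Over the 13 member probes the median absolute gap between clones was 0.44 for LcPOU5F3, 0.36 for LcPOU5F1 and 0.15 for mOct4, and over all tested probes it was 0.40 for LcPOU5F3, 0.22 for LcPOU5F1 and 0.18 for mOct4. LcPOU5F3 clone 1 was above clone 2 on 12 of 13 member probes, with 62.8% of all tested probes in that direction. The exception was Tcf7l1. Taken clone by clone against the mOct4 mean, Foxd3 was 7.49-fold lower in LcPOU5F3 clone 1 and 21.0-fold lower in clone 2, and Prdm14 was 4.11-fold and 14.4-fold lower. The Foxd3 signal of clone 2, at -2.85, lay under the common floor of -2.44. Zfp42 was 3.52-fold lower in clone 1 and 6.39-fold lower in clone 2, Nanog probe 1 2.83-fold and 5.99-fold, and Sox2 2.75-fold and 3.74-fold. In this group clone 2 was therefore the lower clone for each of the genes called, and the size of each fall differed between the clones while its direction did not.

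**Figure D3:**
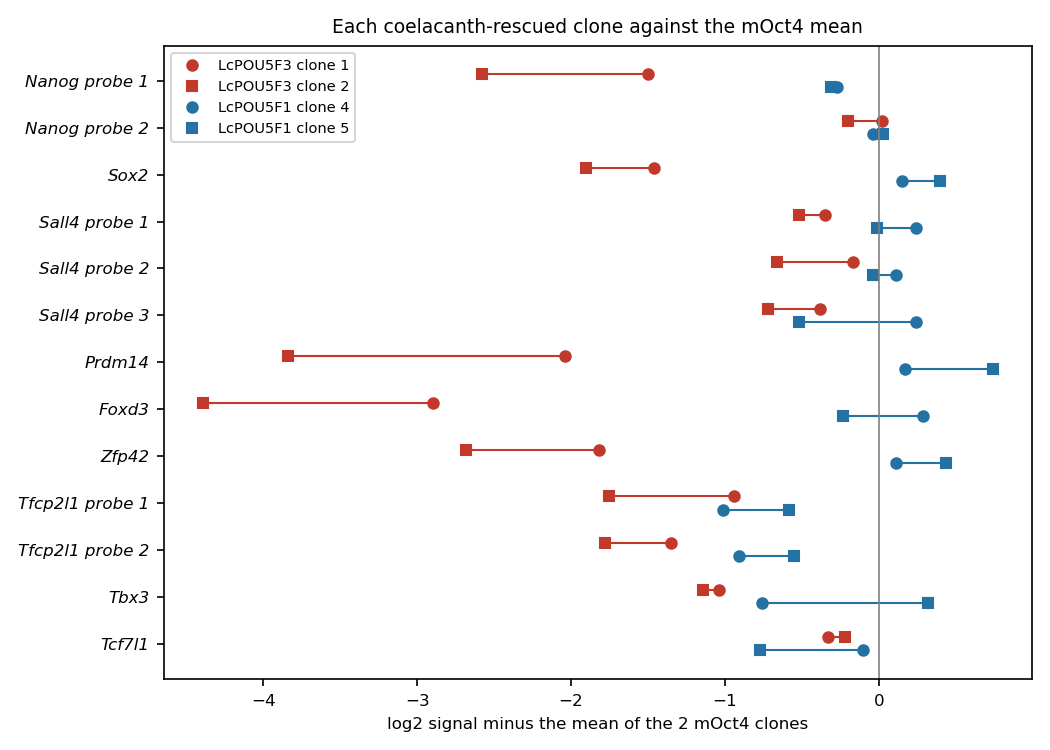
Log2 signal of each coelacanth-rescued clone minus the mean of the 2 mOct4 clones, which is the vertical line at 0, for the 13 probes. The lines joining LcPOU5F3 clones 1 and 2 are longest for Prdm14 and Foxd3, and all LcPOU5F1 points lie between -1.01 (Tfcp2l1 probe 1, clone 4) and 0.74 (Prdm14, clone 5).

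Markers of other cell types were summed on each array as signals in multiples of the 75th percentile. The 10 embryonic stem cell markers were all above background in every clone and summed to 311 to 428 with LcPOU5F3, 748 to 756 with LcPOU5F1 and 757 to 826 with mOct4, though 9 of them also stand in the gene lists below. Dppa5a was the brightest of them in every clone, and most of the LcPOU5F3 sum came from it. Between LcPOU5F3 and mOct4 Dnmt3l, Fbxo15, Esrrb, Tdh and Alpl were called lower. Utf1, Dppa4, Lin28a, Dppa5a and Gdf3 differed by -1.69, -0.86, -0.66, -0.62 and -0.03. None of the latter passed (limma adjusted p from 0.0586 to 0.961). Between LcPOU5F1 and mOct4 Dnmt3l, Alpl and Fbxo15 differed by -4.45, -2.25 and -1.21, while Tdh and Gdf3 differed by 0.81 and 0.67. None of these differences passed (limma adjusted p from 0.179 to 0.497). Of 10 trophectoderm markers, 9 were above background in both LcPOU5F3 clones, 6 in both LcPOU5F1 clones and 8 in both mOct4 clones, and they summed to 510 to 535 with LcPOU5F3, 24.7 to 33.0 with LcPOU5F1 and 35.7 to 36.6 with mOct4. In the LcPOU5F3 clones most of this sum came from the keratins Krt18 and Krt8, and without these, a step chosen after the values were seen, the other 8 summed to 48.5 to 49.6 with LcPOU5F3, 15.0 to 17.0 with LcPOU5F1 and 25 to 26.6 with mOct4. Between LcPOU5F3 and mOct4 the markers did not all move alike. Cdx2 and Gata3 rose by 3.82 and 3.96, while Eomes fell by 2.02 (limma adjusted p = 0.0349) and Tfap2c and Hand1 differed by 0.05 and -0.02. Elf5 was not above background on any array, and Krt7 on neither LcPOU5F1 array. The trophectoderm sum is high in the same clones in which the members fell, and its part in those falls was not tested. Of 9 primitive endoderm markers, 3 were above background in both clones of each group. They were Lama1 and Gata4, with Dab2 for LcPOU5F3, Cubn for LcPOU5F1 and Sox17 for mOct4. The 9 summed to 13.3 to 17.8 with LcPOU5F3, 32.9 to 47.4 with LcPOU5F1 and 23.1 to 23.7 with mOct4, and most of each sum came from Lama1. Between LcPOU5F3 and mOct4 Lama1 differed by -0.84 and did not pass (limma adjusted p = 0.129). Dab2, above background in neither mOct4 clone, was called higher with LcPOU5F3 (limma adjusted p = 0.0119). The 8 fibroblast markers, with Lum and Prrx1 above background on no array, summed to 4.6 to 5.31 with LcPOU5F3, 1.27 with both LcPOU5F1 clones and 1.89 to 2.26 with mOct4. Thy1 was the brightest of these in every clone. It was called higher with LcPOU5F3 than with mOct4 (1.28, limma adjusted p = 0.0294). So was Dcn (limma adjusted p = 0.0134), which neither mOct4 clone had above background, while Col1a1, Col1a2 and Col3a1 did not pass. The 8 primed epiblast markers, with T above background on no array, summed to 68.1 to 80.9 with LcPOU5F3, 42.9 to 51.6 with LcPOU5F1 and 71.8 to 89.4 with mOct4. Most of each sum came from Dnmt3b, which differed by 0.15 between LcPOU5F3 and mOct4. In that comparison Otx2 differed by -1.35 (limma adjusted p = 0.0253), while Nes and Pou3f1 differed by 0.82 and 0.81 and did not pass. The part of these sums in the members' differences was not tested.

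Partners of the core, the 24 genes for other regulators that act with these factors, were lower with LcPOU5F3 than with mOct4 in 8 cases and higher in 0, by limma with Benjamini-Hochberg adjustment. Among named genes read by 1 probe each, 7.43% were called lower and 8.96% higher in this comparison. The list's median was -0.74, against -0.09 over named genes. This list and those below were also chosen with earlier results of these data known. Nr5a2, a nuclear receptor acting on the Pou5f1 promoter, was at 1.90 and 1.36 with LcPOU5F3, 3.74 and 4.28 with LcPOU5F1, and 3.53 and 3.51 with mOct4, and its LcPOU5F3 to mOct4 difference was -1.89 ± 0.28. Mybl2, a cell-cycle regulator of the MYB family, fell by 1.85 ± 0.33. The other probes of Nr5a2 and Mybl2 gave -1.78 and -2.70. Esrrb, an orphan nuclear receptor that can stand in for Nanog, was at 5.24 and 4.02 with LcPOU5F3, 7.04 and 7.14 with LcPOU5F1, and 7.12 and 7.10 with mOct4. Between the paralogs 9 partners were higher with LcPOU5F1 and 0 lower, where 5.88% of named genes were called higher and 7.62% lower, and the list's median was 0.84 against 0.21. None of the 24 passed between LcPOU5F1 and mOct4 (0% of named genes called).

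Genes with known OCT-SOX elements or core factor binding, 20 in all, were lower with LcPOU5F3 than with mOct4 in 10 cases and higher in 1, with a median of -1.25. Of all named genes 7.43% were called lower and 8.96% higher. Tcl1, a coactivator of AKT kinase, was at -0.60 and -2.86 with LcPOU5F3, 3.88 and 4.50 with LcPOU5F1, and 4.76 and 4.11 with mOct4. The LcPOU5F3 clones lay far below the others and far apart from each other. Fbxo15, a stem-cell F-box gene, was at 2.76 and 2.28 with LcPOU5F3, 3.82 and 4.67 with LcPOU5F1, and 5.37 and 5.55 with mOct4, so that the 3 groups were in steps without overlap. Rif1, a regulator of replication timing, fell by 1.26 ± 0.17 and Tdgf1, a co-receptor of Nodal signalling, by 2.90 ± 0.42, with -2.52 and -3.02 on the other Tdgf1 probes. Between the paralogs 9 targets were higher with LcPOU5F1 and 0 lower, with a median of 0.70, where 5.88% of named genes were called higher and 7.62% lower. None of the 20 passed between LcPOU5F1 and mOct4, where the median was 0.14.

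Of 22 family relatives of the members 19 were tested, and 2 were lower and 1 higher with LcPOU5F3 than with mOct4, with a median of -0.22. The shares over all named genes were 7.43% lower and 8.96% higher. Sall1, a relative of Sall4, was at 0.44 and 0.03 with LcPOU5F3, 2.36 and 2.43 with LcPOU5F1, and 1.79 and 1.62 with mOct4. Its difference was -1.47 ± 0.21 between LcPOU5F3 and mOct4 and 2.16 ± 0.21 between LcPOU5F1 and LcPOU5F3. Sall3, also called lower with LcPOU5F3, was well above background on neither LcPOU5F3 array. The lowest signals well above background on the LcPOU5F3 arrays were -2.46 and -3.93. Sall3 was at -3.28 and -3.40 in the mOct4 clones, so no fold is given. With LcPOU5F1 it was at least 4.42-fold higher than with LcPOU5F3 (limma adjusted p = 0.00898), a bound that takes, on each dim array, the higher of the probe's own signal and the lowest signal well above background. Tbx4, a T-box gene of limb and lung mesenchyme, was the gene that rose, by 6.59-fold (2.72 ± 0.29), with -0.39 and -0.17 in the LcPOU5F3 clones and -2.68 and -3.32 in the mOct4 clones. Sox15, a relative of Sox2 also active in trophoblast, differed by -1.48 ± 0.35 and did not pass (limma adjusted p = 0.0542). Between the paralogs 2 relatives, Sall1 and Sall3, were higher with LcPOU5F1 and 1, Tbx4, was lower, where 5.88% of named genes were called higher and 7.62% lower.

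Of 12 corepressors and Wnt target genes around Tcf7l1, 11 were tested, with 1 lower and 1 higher with LcPOU5F3 than with mOct4 and a median of 0.09. These counts are near the shares over all named genes, 7.43% lower and 8.96% higher. Tle1, a Groucho-type corepressor that TCF proteins recruit, fell by 0.86 ± 0.17, and its other 3 probes gave -0.46, -0.26 and -0.59. Dkk1, a secreted Wnt inhibitor and Wnt target, was at -0.02 and -0.38 with LcPOU5F3 and not well above background in any clone of the other groups. It was at least 11.5-fold higher with LcPOU5F3 than with mOct4 (limma adjusted p = 0.0133). Tle3 differed by -1.17 ± 0.36 and Sp5, a Wnt-induced zinc finger gene, by 2.02 ± 0.72, and neither passed (limma adjusted p = 0.0937 and 0.124). Between the paralogs Tle1 was higher and Dkk1 lower with LcPOU5F1, and the other 9 did not pass, where 5.88% of named genes were called higher and 7.62% lower.

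**Figure D4:**
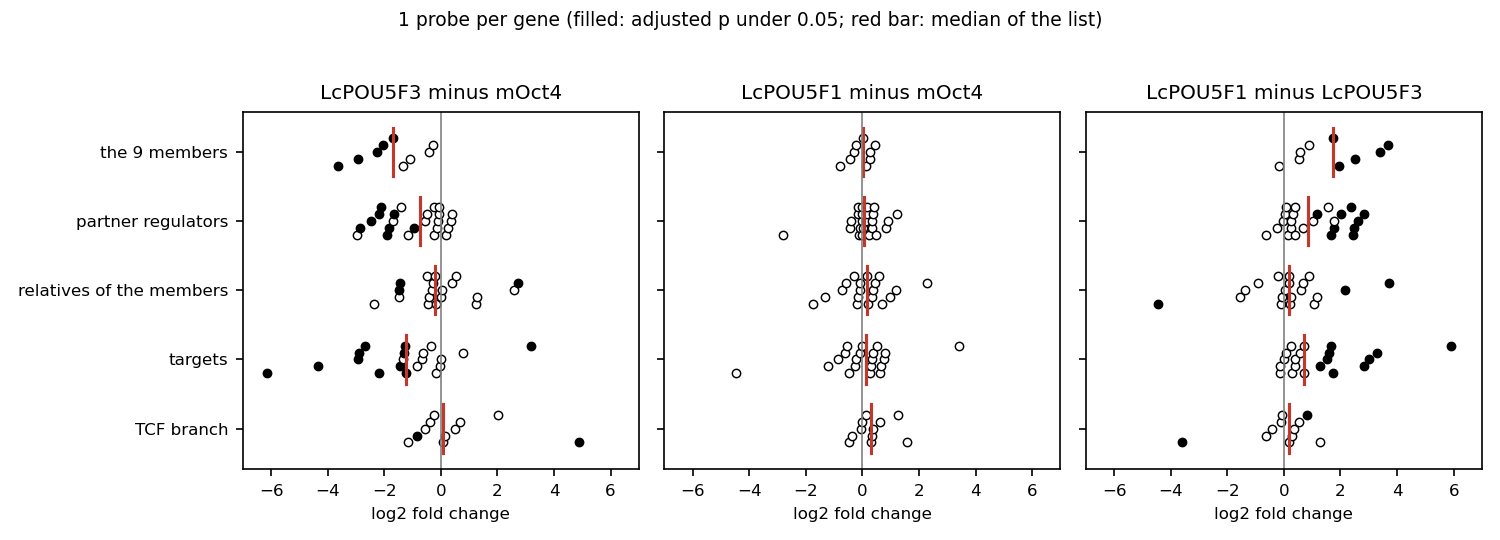
Fitted log2 fold changes of the members and of 4 lists around them, with 1 probe per gene, in each comparison; filled points have an adjusted p under 0.05 and red bars are list medians. Filled points lie below 0 for 8 partners and 10 targets in the left panel and above 0 for 9 of each in the right panel. Points for Sall3, Tbx4 and Dkk1 include groups that were not well above background.

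The named genes whose pattern over the 6 arrays lay nearest to each member, by Euclidean distance of log2 levels after removing each probe's mean, were found by rule. Sox2 lay nearest to Fam81a (distance 0.135) and Fblim1 (0.296), and Nanog probe 1 to Pck2 (0.174) and Hid1 (0.270). Prdm14 lay nearest to Lrriq4 (0.309) and to Fgf4 (0.537), a growth factor gene with a known OCT-SOX enhancer. Foxd3 lay nearest to Meox1 (0.299) and Cpsf4l (0.451), and Zfp42 to Fkbp5 (0.409) and Pla2g2c (0.413). For the genes with smaller differences, the nearest were A2m (0.315) and Hdac6 (0.318) for Tfcp2l1, Ldhb (0.346) and Calm3 (0.348) for Tbx3, Tomm5 (0.0404) and Pwp2 (0.0938) for Sall4, and Samd10 (0.160) and Mtss1 (0.166) for Tcf7l1. The 6 points of each pattern share their arrays and scaling.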

How the data were processed

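Each of 6 samples was hybridised to its own 1-colour Agilent array, which has 55681 probes besides controls. Per the file headers, the authors extracted linear spot intensity (Agilent Feature Extraction 11.0.1.1, protocol GE1_1100_Jul11, design build mm9), subtracted background and did not scale arrays to each other. The deposited matrix gives that intensity again, within 0.5%. The software's flags put 43.5% to 57.8% of an array's probes well above background and marked no spot as saturated. The number of arrays limits the precision.

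Log2 of the processed signal, less the 75th percentile of its array, was used. Outlier-flagged and control spots were left out and spots of a probe averaged. A probe stayed if some group had it well above background on both its arrays, and after incomplete ones were dropped 30944 remained. Names came from RefSeq (GRCm38.p6) by unversioned accession, for 27656 probes. The 3 group means were fitted with limma 3.58.1 in R 4.3.3 (lmFit, eBayes; 3 residual degrees of freedom, 5.28 once moderated), and p-values were Benjamini-Hochberg adjusted over all probes. The steps were tested on simulated data with independent noise for each probe and array. That test holds no shifts shared by the probes of an array, so it cannot vouch for the calls. Intervals are 95%. P-values measure the spread between picked clones, pooled over the 3 groups, not between repeat cultures of 1 clone. The groups differ in that spread, and the mOct4 clones also differ in slide and scan.

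Members and lists were chosen with earlier results of these data known. All member probes were named whatever their values, with up to 4 genes per list by smallest p between LcPOU5F3 and mOct4 (the probe of highest mean per gene) and the 2 nearest patterns per member. A gene that this rule names is not reported here. Normexp (offset 50) used the median spot signal. The clone numbers shared by LcPOU5F3 and mOct4 were not used to pair samples, since no label ties them. Deviations of same-numbered clones correlated at -0.132. That value rests on 1 clone difference per group, so it cannot show whether the clones are paired. A crossed pairing was added after seeing the data. Other alternatives were quantile and median scaling, other filters, a floor at -2.44, 1 probe per gene, an intensity trend, fewer arrays, the slide as a block, the series matrix and leaving out each array.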

Additional observations from a re-analysis of the deposited data

How the results depend on the processing

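LcPOU5F3 minus mOct4 called 3908 probes and 6 members. This became 314 and 0 with no filter on dim probes, 7201 and 8 with an intensity trend, 1308 and 1 with only the 4 arrays compared, and 0 and 0 with the slide as a block. Members called were 8 with normexp, 7 with median centring and with only probes above background on all arrays, and 4 with the floor. With clone number as a replicate block it was 0 and 0, and the crossed pairing called 998 and 2. Leaving out an array gave 0 to 7939 probes (the highest without LcPOU5F3 clone 1) and 0 to 7 members. LcPOU5F1 minus mOct4 called 0 members in every alternative run, and of all probes 5 with normexp, 130 with quantile normalization (6 higher, 124 lower), 777 with median centring (32 higher, 745 lower), 99 with the floor, 5 with 1 probe per gene, 37 with the trend and 740 with 4 arrays, and 0 to 740 without an array (740 without either LcPOU5F3 clone). LcPOU5F1 minus LcPOU5F3 called 3306 and 5. No filter gave 247 and 0, the trend 7229 and 7, the floor 3 members (Nanog probe 1 and Prdm14 lost), normexp and the stricter filter 6 members each, and both 4 arrays and the slide block 67 and 0, and leaving out an array gave 0 to 12056 and 0 to 7. The split between higher and lower calls moved with the floor to 3100 and 1504 and with the trend to 4783 and 2446. The cause of these changes was not tested, except that fewer arrays leave fewer degrees of freedom.

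Signs turned only for differences that did not pass. In LcPOU5F1 minus mOct4 normexp gave 0.087 for Nanog probe 2 and 0.0097 for Sall4 probe 3, and quantile normalization -0.021 for Foxd3. Median centring gave -0.33 and -0.25 for Sall4 probes 2 and 1, -0.095 for Zfp42, -0.096 for Sox2 and -0.34 for Foxd3. The slide block gave 0.074 for Nanog probe 2 and -0.028 for Foxd3. Leaving out an array, the lowest and highest values in that comparison were -0.080 and 0.15 for Sall4 probe 2, -0.0064 and 0.24 for Sall4 probe 1, -0.52 and 0.24 for Sall4 probe 3, -0.76 and 0.32 for Tbx3, -0.076 and 0.074 for Nanog probe 2, and -0.23 and 0.29 for Foxd3. Nanog probe 2 ranged likewise over -0.20 to 0.019 in LcPOU5F3 minus mOct4 and over -0.020 to 0.20 in LcPOU5F1 minus LcPOU5F3, where median centring gave -0.32. Tcf7l1 ranged over -0.49 to 0.17 in LcPOU5F1 minus LcPOU5F3. Of 443 values of member probes under the other settings, 375 kept direction and side of the threshold, 46 no longer passed and 11 newly passed. Of 234 values without an array, 177 kept both, 42 no longer passed and 3 newly passed.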

Other observations

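Among the OCT-SOX targets, Lefty2 and Dnmt3l set both coelacanth groups apart from mOct4, by more than any member did in the LcPOU5F1 comparison. They were chosen after their values were seen. Lefty2, a secreted antagonist of Nodal, was the target that rose with LcPOU5F3, with log2 levels of 2.94 and 1.77 in the LcPOU5F3 clones, 2.26 and 2.95 in the LcPOU5F1 clones, and -0.36 and -1.28 in the mOct4 clones. The coelacanth groups overlapped and lay above the mOct4 clones. Its log2 fold change was 3.17 ± 0.53 between LcPOU5F3 and mOct4 (limma adjusted p = 0.0263 after Benjamini-Hochberg adjustment) and 3.43 ± 0.53 between LcPOU5F1 and mOct4, which did not pass (limma adjusted p = 0.201).

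Dnmt3l, the catalytically inactive partner of the de novo DNA methyltransferases, was at 1.03 and -0.48 in the LcPOU5F3 clones, 1.00 and -0.70 in the LcPOU5F1 clones, and 4.61 and 4.60 in the mOct4 clones. The coelacanth groups overlapped here too, below the mOct4 clones. It differed by -4.33 ± 0.72 between LcPOU5F3 and mOct4 (limma adjusted p = 0.0263) and by -4.45 ± 0.72 between LcPOU5F1 and mOct4 (limma adjusted p = 0.201). A difference of like size thus passed in 1 comparison and not in the other, since adjustment over all probes depends on how many probes have small p-values in that comparison. Both comparisons use the same mOct4 arrays, so their values are not independent.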
